A study of Mus musculus with 6 samples.

Results

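Gpihbp1, Cd36, Fabp4, Fabp5, Rbp7 and Lpl are 6 genes that act along the route by which fatty acids leave the blood and enter muscle. They were chosen by name, and all 6 were found among the 16494 genes of the count table. Their transcripts were counted in single cells of lower abdominal muscle (LAM), the muscle at the base of the abdominal wall, from 3 WT and 3 Aromhum male mice of the FVB/N strain aged 9 to 10 weeks. Aromhum mice carry the human aromatase gene CYP19A1 under its own human promoters, so that aromatase, the enzyme that makes estrogen from androgen, is made in more tissues than in WT males, and they develop scrotal hernias with a weakened and fibrotic LAM. The WT mice were littermates without the transgene. The transgene is not limited to 1 cell type, so a difference between the genotypes can arise in any cell of the body. The tissue was minced, digested with collagenase II and dispase, and filtered by size to remove the large multinucleated fibers, so the cells called muscle fiber here are what the filter let through.

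Triglyceride travels in the blood inside lipoproteins that are too large to cross the vessel wall. Lipoprotein lipase, encoded by Lpl, is secreted by parenchymal cells such as myocytes and adipocytes, and the capillary protein GPIHBP1 binds it and carries it to the luminal surface, where it releases fatty acids. CD36 is a membrane receptor that promotes fatty acid entry, and FABP4 and FABP5 are small cytoplasmic proteins that bind fatty acids inside the cell. RBP7 belongs to the same protein family as the FABPs and binds retinol, and it is known from endothelium and fat. Cd36, Fabp4, Lpl and Rbp7 are known targets of the nuclear receptor PPARγ.

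In the GENCODE vM21 annotation of GRCm38, Gpihbp1 lies on the forward strand at chr15:75596628-75599481, Cd36 on the reverse strand at chr5:17781690-17888801, and Lpl on the forward strand at chr8:68880491-68907448. Fabp4 (reverse strand, chr3:10204088-10208576) and Fabp5 (forward strand, chr3:10012548-10016607) both lie on chromosome 3. Rbp7 lies on the reverse strand at chr4:149449687-149454978. No other annotated gene overlaps any of the 6. Fabp5 has an annotated pseudogene copy, Fabp5l2, so reads that fit both could have been lost or split in the authors' counting.

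RefSeq promoter sequence on GRCm38.p6 was at hand for Rbp7 and Cd36 and is shown as the sequence at the start of these 2 members. The 250 bases before the start of each gene are shown 5′ to 3′ on the gene's own strand, counted from the RefSeq start. The Rbp7 window is chr4:149454969-149455218, whose last bases lie inside the GENCODE span of Rbp7, and the Cd36 window is chr5:17835897-17836146, all of which lies inside that of Cd36. Capitals mark the matches to the motifs searched.
Rbp7: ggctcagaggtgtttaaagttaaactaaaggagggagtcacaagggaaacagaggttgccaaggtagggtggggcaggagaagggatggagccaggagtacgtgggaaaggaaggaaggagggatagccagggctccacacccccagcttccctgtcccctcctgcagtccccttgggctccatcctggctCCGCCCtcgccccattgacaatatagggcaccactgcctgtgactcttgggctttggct
Cd36: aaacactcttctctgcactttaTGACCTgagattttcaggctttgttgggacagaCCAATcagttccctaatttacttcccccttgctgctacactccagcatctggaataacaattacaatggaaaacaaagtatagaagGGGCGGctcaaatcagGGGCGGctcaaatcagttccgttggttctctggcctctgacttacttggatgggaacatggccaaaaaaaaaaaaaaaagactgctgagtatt

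Motifs were searched on both strands, and no 2 matches overlapped. The Cd36 window held 1 nuclear receptor half-site (AGGTCA), on the opposite strand with its first base at −228 from the start. It also held 1 CCAAT box at −195 and 2 GC boxes (GGGCGG) at −109 and −93. The Rbp7 window held 1 GC box, on the opposite strand at −59. Neither window held the letters TATAAA or the ETS sequence CCGGAAGT. Of 32851 promoter windows of this length, 14.0% held AGGTCA, 33.8% CCAAT, 32.7% GGGCGG, 12.4% TATAAA and 2.88% CCGGAAGT.

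The libraries held 7905 to 13764 barcodes each, 63647 in all, with 64958237 to 72876541 unique molecular identifiers (UMIs) in WT and 92652109 to 111826460 in Aromhum mice. CYP19A1 had 0 UMIs in every WT library and 770, 797 and 787 in the Aromhum libraries. Between 19 and 48 barcode sequences were shared by each pair of libraries. Cells were clustered without the 6 genes and named from fixed marker lists, which gave 17 named types and left 5922 cells unnamed. The capillary endothelial class had 10971 cells, and 8 of its 9 markers were highest in it. In the fibroblast-like class only 4 of 8 markers were highest there, and in the muscle fiber class all 11 were. Capillary cells made up 23.0%, 29.3% and 28.2% of the cells of the WT mice and 8.02%, 7.74% and 13.5% of those of the Aromhum mice (2-sided exact permutation test p = 0.1, the lowest that 3 mice against 3 allow).

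Across cell types, 5 of the 6 genes had their highest mean level in a blood endothelial type and are called the endothelial genes here. Lpl was about as high in fibroblast-like as in capillary cells. Levels are given in CPM, the UMI count of a gene scaled to the same total in every mouse and cell type, and averaged over the mice. A UMI of a 3′ library stands for 1 captured transcript and not for a length of it, so these levels were also set side by side between genes.

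Gpihbp1 was highest in capillary cells, at 1972 ± 290 CPM (SD, n = 6 mice). Arterial cells followed with 493 ± 128 CPM and lymphatic endothelial cells with 454 ± 97.7 CPM, 2 neighbors whose ranges over mice overlapped while the capillary range, 1480 to 2353 CPM, stood clear of them. Venular cells held 192 ± 63.8 CPM, below the lymphatic range. Of the 6 genes, only Gpihbp1 had overlapping arterial and lymphatic ranges.

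Cd36 was also highest in capillary cells, at 1855 ± 174 CPM, with no overlap with the next type. The arterial level of 815 ± 294 CPM and the venular level of 740 ± 200 CPM overlapped. Pericytes, the mural cells wrapped around capillaries, held 465 ± 57 CPM and macrophages 432 ± 354 CPM, while lymphatic endothelial cells held only 67.9 ± 27.5 CPM.

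Fabp4 was the most abundant member in every blood endothelial type. Its capillary level was 21505 ± 1201 CPM. The venular level of 18164 ± 3213 CPM overlapped the capillary one, and the arterial level of 10944 ± 2530 CPM overlapped the venular one. The next type, myelinating Schwann cells, held 1657 ± 925 CPM.

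Fabp5 followed the same order in capillary cells (1319 ± 180 CPM) and venular cells (998 ± 221 CPM), whose ranges overlapped. Macrophages at 679 ± 675 CPM and non-myelinating glia at 646 ± 137 CPM came next, ahead of arterial cells at 496 ± 118 CPM. The macrophage mean rested on 1 mouse, as described later.

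Rbp7 alone was highest in arterial cells, at 1237 ± 310 CPM, with capillary cells at 1098 ± 171 CPM and an overlap of the ranges. The lymphatic level (136 ± 26.7 CPM) and the venular level (117 ± 49.6 CPM) were far lower. For Fabp4 and Fabp5 the mean venular level was above the arterial one, whereas for Rbp7 every venular value lay below every arterial value.

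Lpl had the flattest profile. Fibroblast-like cells held 621 ± 111 CPM, capillary cells 605 ± 116 CPM, pericytes 504 ± 124 CPM and dendritic cells 462 ± 183 CPM, and each of these ranges overlapped the next. Arterial cells held 149 ± 49.0 CPM and venular cells 28.2 ± 17.2 CPM, the lowest of all types. Muscle fiber cells held 202 ± 27.8 CPM.

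**Figure D1:**
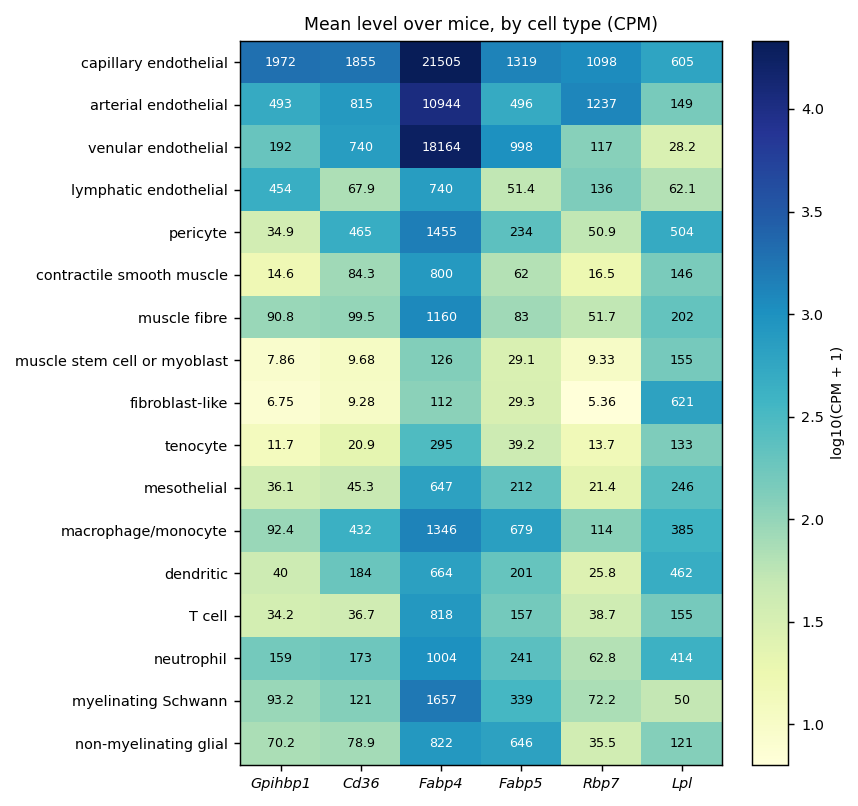
Mean level over mice (CPM) of the 6 genes (columns) in the 17 named cell types (rows), with the shade on a log10(CPM + 1) scale. Gpihbp1, Cd36, Fabp4 and Fabp5 peak in capillary cells, Rbp7 in arterial cells at 1237 CPM and capillary cells at 1098 CPM, and Lpl in fibroblast-like cells at 621 CPM.

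Over the 17 cell types, the log2(mean CPM + 1) of the 5 endothelial genes correlated with each other at Pearson's r of 0.69 (Gpihbp1 with Fabp5) to 0.94 (Gpihbp1 with Rbp7). Lpl correlated with the other members at −0.20 to 0.06. These correlations describe 17 types taken from the same 6 libraries. Among 9846 genes compared, those most like Gpihbp1 were Cldn5 (r = 0.972), a tight junction gene of endothelium, Kank3 (0.961), Bcl6b (0.956), Cdh5 (0.954), which encodes VE-cadherin, and Afap1l1 (0.952). Rbp7 was closest to Cldn5 (0.948), followed by Gpihbp1 (0.937), the Notch ligand gene Jag2 (0.931), Ushbp1 (0.930) and Cdh5 (0.928). Cd36 was closest to the VEGF receptor gene Flt1 (0.927), then Fabp4 (0.916), Isg15 (0.901), the HDL receptor gene Scarb1 (0.880) and Lipe (0.879), which encodes hormone-sensitive lipase. Fabp4 was closest to Flt1 (0.963), Adgrf5 (0.949), Scarb1 (0.940), Sox17 (0.935) and Iigp1 (0.932). Fabp5 was closest to Adgrg1 (0.858), Scarb1 (0.851), Cd36 (0.844), Cd93 (0.837) and Rnf114 (0.828). No gene came that close to Lpl, for which Lamtor3 was first at 0.762, ahead of Plgrkt (0.683), Rffl (0.677), Psd3 (0.676) and Adora2b (0.673).

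The capillary class was made of 3 clusters, and all 6 genes were highest in the same one. Only cluster 4 scored highest on the capillary list. Clusters 3 and 10 scored highest on a list of general endothelial genes and were named by the endothelial subtype that scored best after it. Sox17, a leading gene of cluster 3, is on the arterial list. In cluster 4, led by Timp4, Gpihbp1, Tcf15 and Car4, the means over mice were 2760 CPM for Gpihbp1, 2692 for Cd36, 27096 for Fabp4, 1814 for Fabp5, 1892 for Rbp7 and 933 for Lpl. In cluster 3, led by Cldn5 and Sox17, they were 1670, 1515, 19074, 1082, 702 and 480 CPM in the same order of genes. Cluster 10, whose median depth of 899 UMIs per cell was the lowest of the 3, held 1399, 1311, 19659, 1209, 1079 and 397 CPM. Cluster 4 made up 7.68%, 12.9% and 11.4% of the cells of the WT mice and 1.77%, 1.61% and 3.89% of those of the Aromhum mice. Cluster 3 was the most numerous capillary cluster in each Aromhum mouse and in WT1 and WT3, and cluster 4 was in WT2.

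Most capillary cells carried a UMI of most of these genes. Expected for 1000 UMIs per cell, with shallower cells left out, 99.6% of capillary cells had a UMI of Fabp4, 78.7% of Gpihbp1, 77.9% of Cd36, 60.8% of Fabp5, 48.6% of Rbp7 and 41.0% of Lpl (means of 6 mice). This left out 675 of 3238 capillary cells in Aromhum and 1223 of 7733 in WT mice. Without thinning, the shares were 99.5%, 85.3%, 86.5%, 76.2%, 63.8% and 59.3%. At 1000 UMIs, fibroblast-like cells had the lowest shares among the types for Gpihbp1 (0.556%), Cd36 (0.854%), Rbp7 (0.507%) and Fabp4 (6.54%). Muscle fiber cells had 4.91%, 6.44%, 3.16% and 17.9% in the same order, so the background depends on the type it is read from. For Lpl fibroblast-like cells had 34.3%, close to the capillary share. Median depth was 2495 UMIs in capillary, 2098 in muscle fiber and 9938 in fibroblast-like cells. Between the genotypes, the thinned capillary shares of 5 genes overlapped. That of Fabp4 was 99.7%, 99.8% and 99.7% in WT and 99.6%, 99.4% and 99.3% in Aromhum mice, without overlap and close to 100% in both (2-sided exact permutation test p = 0.1, the lowest that 3 mice against 3 allow).

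In the mean over all 6 mice, capillary cells held the largest share of the UMIs of each of the 5 endothelial genes. In the Aromhum mice alone, the mean venular share was above the capillary one for Fabp4 (32.1% against 27.1%) and Fabp5 (20.1% against 19.5%). The capillary share of each of the 5 genes lay lower in every Aromhum mouse than in any WT mouse. For Gpihbp1 it was 61.8%, 59.2% and 58.8% in WT and 50.9%, 48.3% and 50.6% in Aromhum mice. For Fabp4 it was 42.4%, 45.0% and 43.0% against 23.7%, 28.7% and 29.1%. Venular cells held 17.7%, 9.42% and 13.6% of the Fabp4 UMIs of the WT mice and 38.4%, 23.7% and 34.4% of those of the Aromhum mice, also without overlap. Of the UMIs of all genes, capillary cells held 10.8%, 15.9% and 18.7% in WT and 2.29%, 2.35% and 5.02% in Aromhum mice, without overlap. Venular cells held a mean of 4.93% of these in WT and 4.95% in Aromhum mice. How many of all genes had capillary shares without overlap was not counted.

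Over all 6 genes together, capillary, arterial and venular cells held a mean of 62.0% of the UMIs in WT and 55.0% in Aromhum mice (2-sided exact permutation test p = 0.2). Most of these UMIs were of Fabp4, whose own mean share was 64.2% in WT and 65.6% in Aromhum mice. The mean shares of the other genes were lower in Aromhum mice, so the pooled share also depends on the weight of each gene. The unnamed clusters held 27.7% of the UMIs of the 6 genes over all mice. Among these, cluster 8 was led by the pericyte gene Rgs5 but scored highest on the list of 8 endothelial genes. It had 14868 CPM of Fabp4, against 1455 CPM in named pericytes, and a median of 12159 UMIs per cell, against 1498.5. Cluster 8 held a mean of 14.2% of all UMIs in WT and 3.36% in Aromhum mice, and any endothelial RNA in it is outside the blood endothelial shares. Lpl was distributed otherwise, with 62.8%, 46.2% and 32.6% of its UMIs in fibroblast-like cells of the WT mice and 79.3%, 73.8% and 71.4% in those of the Aromhum mice. Its capillary share was 16.5%, 19.0% and 32.6% in WT and 2.45%, 2.49% and 7.78% in Aromhum mice. The groups did not overlap in either share of Lpl. Of the UMIs of all genes, fibroblast-like cells held a mean of 33.3% in WT and 56.9% in Aromhum mice, and capillary cells 15.1% and 3.22%. The capillary share of each of the 6 genes, the venular share of Fabp4 and the fibroblast-like share of Lpl had the lowest possible p of 0.1 by the 2-sided exact permutation test.

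The comparison of genotypes asked whether the genes differed between WT and Aromhum mice within a cell type. Over 16 types with at least 20 cells in every mouse, 93 pairs of a gene and a type could be tested by edgeR's quasi-likelihood test, and 13 of them (14.0%) passed an adjusted p of 0.05, 12 lower and 1 higher in Aromhum mice. This count was 1 within limits on cells taken from the study, 34 with no filter on low counts and between 1 and 26 when 1 mouse was left out. Over all genes, 2.11% of such pairs passed in the fit that gave the 13 calls. That share under the alternatives is not given here. The 13 lay in 6 of the 16 types.

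In capillary cells, where the 5 endothelial genes were at or near their highest, none of the 6 passed the test. Gpihbp1 was at 2353, 1995 and 1892 CPM in WT and at 1978, 1480 and 2132 CPM in Aromhum mice (log2 fold change −0.19 ± 0.15 SE, adjusted p = 0.632 by edgeR). Cd36 was at 2039, 2108 and 1761 CPM against 1755, 1784 and 1684 CPM (−0.21 ± 0.13, edgeR adjusted p = 0.496). Fabp4 was at 21413, 23670 and 20980 CPM against 21292, 21646 and 20030 CPM (−0.10 ± 0.15, edgeR adjusted p = 0.812). The genotypes overlapped for each of these genes, and Gpihbp1 was lowest in Arom2.

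Fabp5 in capillary cells was at 1073, 1374 and 1459 CPM in WT and 1303, 1158 and 1548 CPM in Aromhum mice (0.01 ± 0.15, edgeR adjusted p = 0.987). Rbp7 was at 1020, 1099 and 1057 CPM against 1251, 842 and 1320 CPM (0.08 ± 0.16, edgeR adjusted p = 0.875). Lpl was at 650, 587 and 704 CPM against 543, 417 and 732 CPM (−0.23 ± 0.17, edgeR adjusted p = 0.604). Of the Aromhum mice, Arom2 was the lowest in Gpihbp1, Fabp5, Rbp7 and Lpl, and all groups overlapped.

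The count in capillary cells was 0 of 6 by edgeR, with 0 at an unadjusted p under 0.05 and 0 by DESeq2, beside 2.29% of the 10880 genes tested there. On simulated data with the capillary counts of these mice, the same fit found 75.5% of changes of 2-fold and 99% of changes of 4-fold. Within cluster 3, cluster 4 and cluster 10 taken alone edgeR also called 0 of 6, with 0 at an unadjusted p under 0.05 in each, beside 1.79%, 0.184% and 0.791% of all genes called in these clusters.

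In the sum over all cells of a mouse the picture was different. Gpihbp1 was at 411, 537 and 601 CPM in WT and 89, 72 and 212 CPM in Aromhum mice (−2.04 ± 0.41, edgeR adjusted p = 0.0226). Cd36 was at 462, 742 and 720 CPM against 134, 125 and 225 CPM (−1.96 ± 0.27, edgeR adjusted p = 0.0179). For both genes every Aromhum mouse lay below every WT mouse, and Arom3 was the highest of the Aromhum mice.

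Fabp4 was at 5449, 8383 and 9119 CPM against 2056, 1775 and 3457 CPM (−1.63 ± 0.29, edgeR adjusted p = 0.0190), and Rbp7 at 246, 393 and 481 CPM against 76.9, 55.1 and 179 CPM (−1.83 ± 0.46, edgeR adjusted p = 0.0383). The groups did not overlap for these genes either. Fabp5 was at 288, 518 and 613 CPM against 209, 155 and 293 CPM, with an overlap of WT1 and Arom3, and missed the threshold (−1.08 ± 0.32, edgeR adjusted p = 0.0561). Lpl was at 426, 492 and 404 CPM against 508, 393 and 472 CPM (0.09 ± 0.13, edgeR adjusted p = 0.642), with complete overlap.

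That is 4 of 6 lower over all cells, beside 11.2% of all genes lower and 23.6% called in either direction. In such a sum, fewer cells of a type and less RNA per cell cannot be told apart. The summed level of 8 endothelial genes (Pecam1, Cdh5, Cldn5, Tie1, Emcn, Tek, Egfl7 and Esam) had a log2 change of −1.64 in Aromhum mice, and all 8 were called lower. Blood endothelial cells held a mean of 24.8% of the UMIs of WT and 9.9% of those of Aromhum mice. Leaving out WT2, WT3, Arom1 or Arom2 ended each of the 4 calls, with adjusted p up to 0.133, and so did limits on genes, UMIs and mitochondrial share per cell taken from the study, where Gpihbp1 was at −1.25 (edgeR adjusted p = 0.383) and Cd36 at −1.07 (edgeR adjusted p = 0.358).

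**Figure D2:**
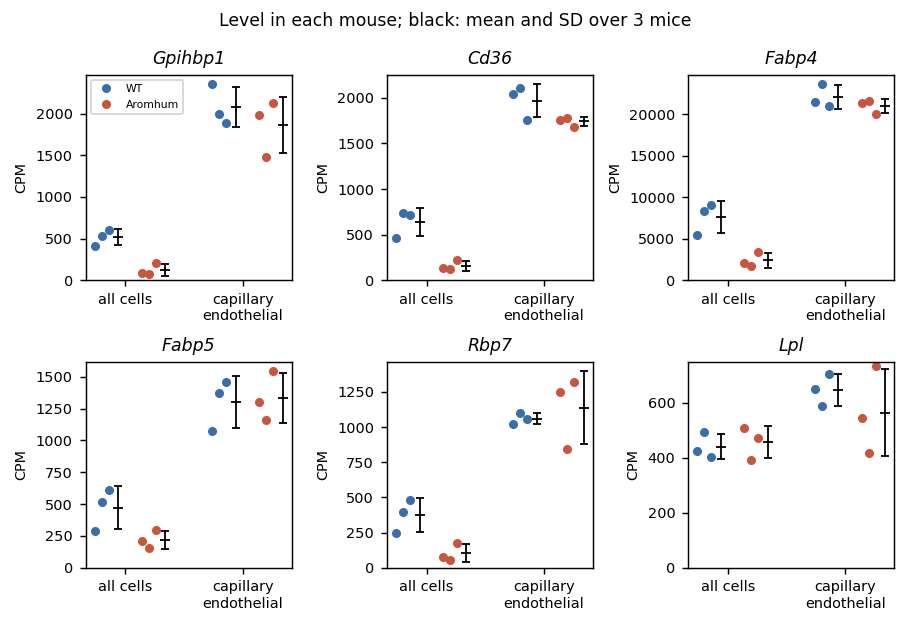
Level (CPM) of each gene in each mouse, in the sum over all cells and in capillary endothelial cells, with the mean and SD over 3 mice in black. Over all cells the Aromhum mice lie below the WT mice in Gpihbp1, Cd36, Fabp4 and Rbp7, while in capillary cells the genotypes overlap for every gene.

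Of the other endothelial types, venular cells had 1 call. Venular Cd36 was at 764, 1082 and 840 CPM in WT and 576, 587 and 591 CPM in Aromhum mice. The 3 Aromhum mice lay close together and below every WT mouse (−0.74 ± 0.15, edgeR adjusted p = 0.0436, beside 0.369% of genes lower). The call was lost without any one of WT1, WT2, WT3, Arom1 and Arom2 (adjusted p up to 0.190), within the limits on cells (−0.57, edgeR adjusted p = 0.361) and without marked doublets (−0.72, edgeR adjusted p = 0.0541).

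Arterial cells had no call by edgeR without a block on replicate number, beside 0.261% of genes called. With the block some members passed, as given in the last section. An unadjusted edgeR p under 0.05 was reached by 4 of the 6 genes, beside 1113 of all 9207 genes. DESeq2 called 4 of the 6, beside 126 genes in all. Arterial Gpihbp1 was at 605, 657 and 536 CPM in WT and 437, 324 and 399 CPM in Aromhum mice (−0.66 ± 0.14, edgeR adjusted p = 0.0875). Arterial Rbp7 was at 1218, 1735 and 1473 CPM against 978, 1074 and 947 CPM (−0.59 ± 0.14, edgeR adjusted p = 0.113). Neither gene's groups overlapped. Lymphatic endothelial Gpihbp1 was at 451, 508 and 432 CPM against 441, 299 and 596 CPM (−0.04 ± 0.20, edgeR adjusted p = 0.999), and lymphatic cells had 0 calls among the 6 genes, with 0 at an unadjusted p under 0.05 and 0 by DESeq2, beside 0.0522% of all genes called.

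**Figure D3:**
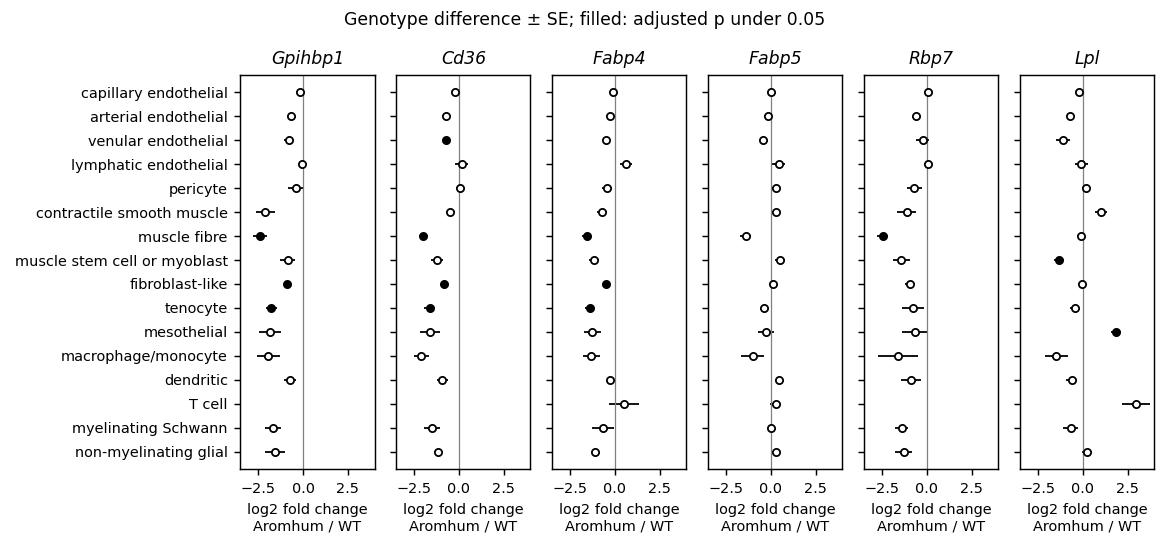
Log2 fold change of Aromhum over WT mice ± SE (x axis) for each gene (panels) in the 16 tested cell types (rows), with filled points at an edgeR adjusted p under 0.05; a missing point is a gene too low to be tested. The 13 filled points lie in venular, muscle fiber, muscle stem cell or myoblast, fibroblast-like, tenocyte and mesothelial cells, and none in capillary cells.

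Of the 13 calls, 10 were lower levels of endothelial genes in 3 types that hold little of them: fibroblast-like cells, muscle fiber cells and tenocytes. For these the endothelial list was measured beside the genes, as a percent of its summed level in the blood endothelial cells of the same mouse.

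In fibroblast-like cells, the matrix-producing cells of the tissue, Gpihbp1 was at 9.39, 8.01 and 8.61 CPM in WT and 3.75, 4.33 and 6.38 CPM in Aromhum mice (−0.88 ± 0.20, edgeR adjusted p = 0.0352). Cd36 was at 10.1, 13.8 and 11.8 CPM against 5.64, 7.88 and 6.42 CPM (−0.85 ± 0.16, edgeR adjusted p = 0.0265). Fabp4 was at 121, 140 and 133 CPM against 78.8, 101 and 98.1 CPM (−0.52 ± 0.11, edgeR adjusted p = 0.0314). No groups overlapped in these 3 genes, which makes 3 of 6 lower beside 6.37% of all genes. All 3 calls were lost without cluster 20, 928 of the 21954 fibroblast-like cells, which scored lowest of the class on the fibroblast markers and was led by Sfrp5, Lypd2 and Apod. Without it edgeR called 0 of 6, beside 6.23% of all genes lower. An unadjusted edgeR p under 0.05 was reached by 4 of the 6, beside 4607 of all 13825 genes. Gpihbp1 was then at −0.69 (edgeR adjusted p = 0.0684), Cd36 at −0.66 (0.053) and Fabp4 at −0.34 (0.143).

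Fibroblast-like Rbp7, at 5.90, 5.93 and 9.12 CPM against 2.80, 3.01 and 5.38 CPM, did not overlap but missed the threshold (−0.93 ± 0.28, edgeR adjusted p = 0.0660). Fabp5 was at 0.10 ± 0.19 on the log2 scale (edgeR adjusted p = 0.751). In the same cells the endothelial list was at 76.2, 81.3 and 91.3 CPM in WT and 45.0, 44.6 and 62.9 CPM in Aromhum mice, with a log2 change of −0.71 and 3 of 8 genes called lower. The list lay at 1.05% of its blood endothelial level (0.777% to 1.30%), above Gpihbp1 at 0.629%, Cd36 at 0.725%, Fabp4 at 0.616% and Rbp7 at 0.683%, while Fabp5 was at 2.88%. Tek alone made up 22.4, 27.2 and 19.5 CPM of the list in WT and 12.9, 16.0 and 17.7 CPM in Aromhum mice. In capillary cells Tek was at 102, 126 and 104 CPM in WT and 88.5, 111 and 114 CPM in Aromhum mice. The list was not measured without Tek. The part of the endothelial RNA in the 3 differences was not tested.

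The 3 calls were lost without any one of WT1, WT2, WT3, Arom1 and Arom2 (adjusted p up to 0.125) and within the limits on cells, where Gpihbp1 was at −1.15 (edgeR adjusted p = 0.196), Cd36 at −0.44 (0.367) and Fabp4 at −0.57 (0.185). Without marked doublets all 3 were called, with Gpihbp1 at −1.51 (edgeR adjusted p = 0.0375), Cd36 at −1.36 (0.0172) and Fabp4 at −1.0 (0.0222). The fibroblast-like class drew on different clusters in the genotypes, chiefly cluster 0 in WT and Arom3, and clusters 1 and 2 in Arom1 and Arom2. Cluster 2 had 16 cells in WT2, under the 20 needed, and was not tested alone. In cluster 0 alone, Cd36 (−0.97, edgeR adjusted p = 0.0238) and Fabp4 (−0.57, edgeR adjusted p = 0.0411) were called, beside 3.97% of all genes lower there, and Gpihbp1 was not (−0.92, edgeR adjusted p = 0.0838). In cluster 1 alone Cd36 (−1.17, edgeR adjusted p = 0.0277) and Rbp7 (−0.98, edgeR adjusted p = 0.0441) passed, beside 6.76% of all genes lower, while Gpihbp1 (−0.85) and Fabp4 (−0.70) did not. In clusters 9 and 20 alone edgeR called 0 of 6, beside 0.633% and 0.238% of all genes called. An unadjusted edgeR p under 0.05 was reached by 2 and 4 of the 6, beside 1434 of 10105 and 680 of 7578 genes. There Cd36 was at −0.35 and −0.91, Gpihbp1 at −1.02 and −1.34 and Fabp4 at −0.30 and −0.83 (edgeR adjusted p up to 0.782).

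In muscle fiber cells the differences were larger. Gpihbp1 was at 132, 142 and 182 CPM in WT and 17.7, 24.9 and 45.3 CPM in Aromhum mice (−2.41 ± 0.37, edgeR adjusted p = 0.0307). Cd36 was at 132, 176 and 165 CPM against 31.6, 39.7 and 52.2 CPM (−2.00 ± 0.26, edgeR adjusted p = 0.0183). Both genes were lower in every Aromhum mouse than in any WT mouse.

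Fabp4 in muscle fiber cells was at 1345, 1834 and 1986 CPM against 498, 559 and 737 CPM (−1.59 ± 0.27, edgeR adjusted p = 0.0466). Rbp7 was at 62.3, 105 and 93.8 CPM against 12.7, 16.2 and 20.0 CPM (−2.48 ± 0.29, edgeR adjusted p = 0.0114). Fabp5 was at 73.9, 116 and 168 CPM against 34.9, 57.2 and 48.5 CPM and missed the threshold (−1.42 ± 0.32, edgeR adjusted p = 0.106). With the replicate number as a block, whose link to the processing dates is not known, Fabp5 passed (−1.39 ± 0.18, edgeR adjusted p = 0.00297). No groups overlapped for these 3 genes.

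Lpl, the member that myocytes are known to secrete, was at 203, 229 and 178 CPM in WT and 160, 230 and 209 CPM in Aromhum muscle fiber cells (−0.11 ± 0.20, edgeR adjusted p = 0.932), with overlap. Thus 4 of 6 were lower, beside 0.319% of all genes. The endothelial list there was at 432, 534 and 648 CPM in WT and 162, 133 and 266 CPM in Aromhum mice, a log2 change of −1.52, with 2 of 8 genes called lower. It stood at 5.56% of its blood endothelial level (2.32% to 9.19%), close to Gpihbp1 at 7.36%, Cd36 at 7.23%, Fabp4 at 6.19%, Fabp5 at 7.73% and Rbp7 at 5.95%, whereas Lpl was at 73.3%. The part of the endothelial RNA in these differences was not tested.

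The muscle fiber calls of Gpihbp1 and Fabp4 were lost without any one of WT1, WT2, WT3, Arom1 and Arom2 (adjusted p up to 0.197), that of Cd36 without WT2, WT3, Arom1 or Arom2 (up to 0.0740), and that of Rbp7 without WT2 or Arom1 (up to 0.0651). Within the limits on cells all 4 were lost, with Gpihbp1 at −1.41, Cd36 at −1.17, Fabp4 at −1.32 and Rbp7 at −1.22, and without marked doublets Gpihbp1 (−2.88), Fabp4 (−2.48) and Rbp7 (−2.58) were. That of Fabp4 was also lost at resolution 0.4 of the clustering (−1.57, edgeR adjusted p = 0.0594).

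In tenocytes, the cells of tendon, 3 genes were called lower. Gpihbp1 was at 14.6, 23.0 and 16.7 CPM in WT and 5.18, 3.74 and 6.77 CPM in Aromhum mice (−1.77 ± 0.29, edgeR adjusted p = 0.0228). Cd36 was at 27.2, 37.2 and 31.9 CPM against 10.4, 3.74 and 14.9 CPM (−1.64 ± 0.32, edgeR adjusted p = 0.0432). Fabp4 was at 443, 469 and 358 CPM against 101, 192 and 206 CPM (−1.42 ± 0.23, edgeR adjusted p = 0.0228).

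No groups overlapped, and 0.536% of all genes were lower in tenocytes. The endothelial list was at 119, 146 and 205 CPM in WT and 41.5, 43.4 and 58.2 CPM in Aromhum tenocytes, a log2 change of −1.71, with 2 of 6 tested genes called lower. It was at 1.56% of its blood endothelial level, beside 0.989% for Gpihbp1, 1.55% for Cd36 and 1.57% for Fabp4. Each of the 3 calls was lost without marked doublets, where the changes were larger (Gpihbp1 −2.31, Cd36 −2.08 and Fabp4 −2.12, edgeR adjusted p up to 0.101). Each was also lost without WT2, WT3 or Arom2, those of Gpihbp1 and Cd36 also without Arom1 and those of Cd36 and Fabp4 also without WT1 (adjusted p up to 0.185). Those of Gpihbp1 and Cd36 were not tested within the limits on cells.

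**Figure D4:**
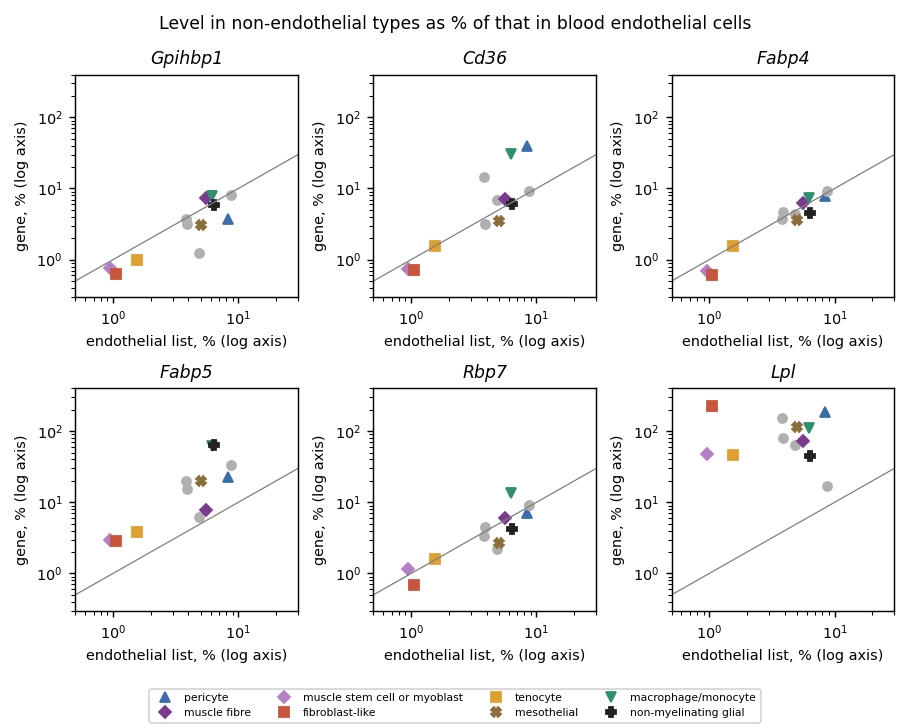
Level of each gene (y axis) and summed level of the 8 endothelial genes (x axis) in non-endothelial cell types, both as a percent of the level in the blood endothelial cells of the same mouse, averaged over mice, on log axes; the line marks equal percents and gray points are the types not in the legend. Gpihbp1, Fabp4 and Rbp7 lie near or below the line in most types, Cd36 lies above it in pericytes at 39.5% and macrophages at 30.7%, Fabp5 in non-myelinating glia at 64.9%, and Lpl lies above it in every type. In pericytes, contractile smooth muscle and mesothelial cells, Esam alone made up much of the list sum.

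Lpl and Fabp5 lay above the endothelial list in every non-endothelial type, Lpl by 1.94 to 214 times and Fabp5 by 1.27 to 10.1 times. Pericyte Cd36 was at 353, 516 and 486 CPM in WT and 491, 469 and 473 CPM in Aromhum mice, which is 39.5% of the blood endothelial level where the list was at 8.34%. The genotypes overlapped (0.03 ± 0.19, edgeR adjusted p = 0.990). Esam alone made up 279, 352 and 321 CPM of the pericyte list in WT and 340, 252 and 322 CPM in Aromhum mice. Fabp5 in non-myelinating glia, the support cells of unmyelinated nerve fibers, was at 628, 512 and 573 CPM against 899, 686 and 576 CPM, or 64.9% of its blood endothelial level where the list was at 6.41% (0.30 ± 0.16, edgeR adjusted p = 0.656). Only Arom3 overlapped the WT mice.

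Macrophages and monocytes, which take up lipoproteins and oxidized lipid through CD36, held Cd36 at 472, 1055 and 555 CPM in WT and 132, 98.5 and 282 CPM in Aromhum mice (−2.10 ± 0.42, edgeR adjusted p = 0.0721). The groups did not overlap. With the replicate number as a block, whose link to the processing dates is not known, Cd36 passed (−2.12 ± 0.40, edgeR adjusted p = 0.0434), as did Gpihbp1 (−1.83 ± 0.24, edgeR adjusted p = 0.0105). By edgeR without the block, 0 of the 6 genes were called in macrophages, beside 0.659% of all genes. An unadjusted edgeR p under 0.05 was reached by 4 of the 6, beside 721 of all 7742 genes. DESeq2 called 1 of the 6, beside 143 genes in all. The endothelial list stood at 6.21% of its blood endothelial level there (3.45% to 14.4%), with a log2 change of −1.10 and 0 of 7 genes called. Cd36 was at 30.7% of its blood endothelial level and above the list in 6 of 6 mice, and Gpihbp1 at 7.92% and above it in 4 of 6. The part of the endothelial RNA in these differences was not tested.

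Macrophages of WT2 stood apart in 2 genes. Fabp5 was at 309, 2048 and 363 CPM in WT and 497, 501 and 355 CPM in Aromhum mice, and Lpl at 194, 1214 and 277 CPM against 143, 172 and 311 CPM. Without WT2 the values of the other 5 mice overlapped in both genes. Macrophages made up 2.24%, 1.37% and 0.911% of the cells of the WT mice and 13.4%, 6.41% and 0.913% of those of the Aromhum mice.

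Lpl had 2 calls by edgeR. In these types edgeR called none of the other members, while DESeq2 called Gpihbp1 (−1.88, adjusted p = 0.044) and Cd36 (−1.70, adjusted p = 0.0477) lower in mesothelial cells and Fabp4 (−1.17, adjusted p = 0.00322) lower in muscle stem cells or myoblasts. Over all genes DESeq2 called 596 in mesothelial cells and 279 in muscle stem cells or myoblasts, against 33 and 175 by edgeR. Without marked doublets edgeR also called Fabp4 in muscle stem cells or myoblasts (−1.24, adjusted p = 0.0432). The endothelial list moved with these genes, from a mean of 436 CPM in WT to 213 CPM in Aromhum mesothelial cells (log2 change −1.04) and from 74.2 to 46.5 CPM in muscle stem cells or myoblasts (−0.67), and its part in their differences was not tested. Esam alone made up 214, 220 and 191 CPM of the list in WT and 118, 75.8 and 171 CPM in Aromhum mesothelial cells. In mesothelial cells the list stood at 5.05% of its blood endothelial level, Gpihbp1 at 3.02% and Cd36 at 3.49%. In mesothelial cells, which line the abdominal cavity, Lpl was at 116, 104 and 117 CPM in WT and 484, 434 and 219 CPM in Aromhum mice. Every Aromhum mouse was above every WT mouse, Arom3 by the least (1.84 ± 0.28, edgeR adjusted p = 0.0464, beside 0.249% of genes higher). This was the 1 higher value among the 13 calls. Mesothelial cells themselves were 1.45%, 1.60% and 0.860% of the cells of the WT mice and 5.40%, 7.28% and 7.51% of those of the Aromhum mice. The call was lost without any one of WT1, WT2, WT3, Arom1 and Arom2 (1.63 to 2.11, adjusted p up to 0.183), and at resolution 0.4 of the clustering (1.84, edgeR adjusted p = 0.0546). It was not tested within the limits on cells.

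In muscle stem cells or myoblasts Lpl was at 155, 202 and 297 CPM in WT and 111, 65.7 and 99.1 CPM in Aromhum mice, with no overlap (−1.35 ± 0.27, edgeR adjusted p = 0.0396, beside 0.914% of genes lower). The call was lost without WT2, WT3, Arom1 or Arom2 (adjusted p up to 0.179) and within the limits on cells (−1.14, edgeR adjusted p = 0.0877). The endothelial list was at 0.951% of its blood endothelial level in these cells and Lpl at 48.1%.

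In fibroblast-like cells as a whole Lpl was at 575, 768 and 552 CPM in WT and 693, 462 and 675 CPM in Aromhum mice (−0.06 ± 0.19, edgeR adjusted p = 0.848), 226% of its blood endothelial level. The clusters differed. Cluster 2, led by Mmp3 and Cpxm1 with 4456 cells, had 16 cells in WT2, too few for a test, and its Lpl is not shown. Cluster 0, led by Myoc, Gsn and Abca8a, was the highest of the tested clusters, with 838, 913 and 691 CPM against 1103, 969 and 768 CPM (0.20, edgeR adjusted p = 0.491). Cluster 1, led by Pnoc, Ren1 and Nppc, was at 524, 308 and 281 CPM against 923, 586 and 710 CPM (0.97 ± 0.28, edgeR adjusted p = 0.0616).

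The genotypes did not overlap in cluster 1, whose Lpl missed the threshold, and did overlap in cluster 0. Cluster 1 made up 4.39%, 2.15% and 1.83% of the cells of the WT mice and 12%, 13.3% and 8.50% of those of the Aromhum mice. Cluster 9, led by Krtdap and Dmkn, was at 199, 266 and 236 CPM against 160, 160 and 274 CPM (−0.25, edgeR adjusted p = 0.619), and cluster 20, led by Sfrp5 and lowest in fibroblast markers, at 511, 531 and 276 CPM against 211, 210 and 448 CPM (−0.55, edgeR adjusted p = 0.586). Pericyte Lpl, at 397, 490 and 520 CPM against 580, 345 and 690 CPM, also overlapped (0.16 ± 0.22, edgeR adjusted p = 0.911).

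Dendritic Lpl was at 500, 772 and 402 CPM in WT and 279, 293 and 528 CPM in Aromhum mice (−0.63 ± 0.29, edgeR adjusted p = 0.936), with Arom3 inside the WT range. Contractile smooth muscle Lpl was at 91.3, 99.1 and 91.9 CPM against 352, 89.3 and 152 CPM (1.00 ± 0.35, edgeR adjusted p = 0.251), with Arom1 far above the other mice and Arom2 just below them. Without marked doublets this Lpl change was 0.11 (edgeR adjusted p = 0.874).

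**Figure D5:**
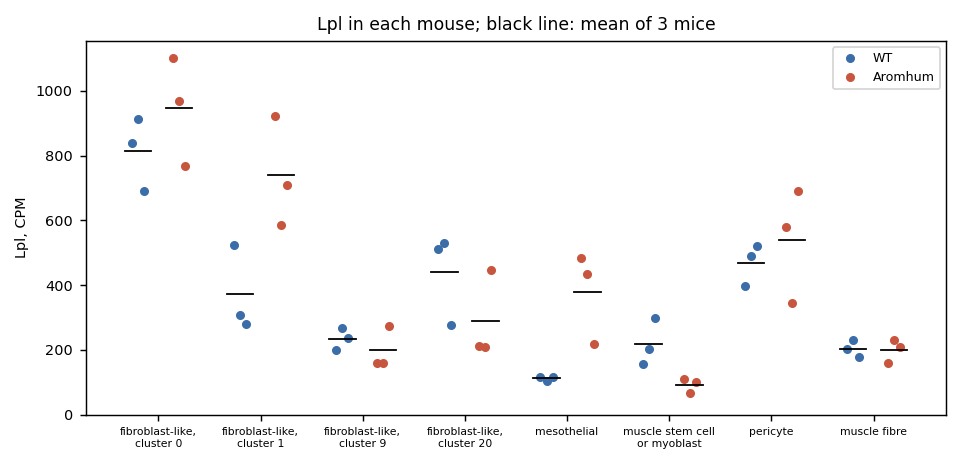
Lpl (CPM) in each mouse, by tested fibroblast-like cluster (0, 1, 9 and 20, without cluster 2) and in 4 other types, with black lines for the mean of 3 mice. Mesothelial cells of the Aromhum mice (219 to 484 CPM) lie above those of the WT mice (104 to 117 CPM), muscle stem cells or myoblasts lie below, and pericytes and muscle fiber cells overlap.

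Whether the genotype effect in a cell type differed from that in capillary cells was tested as an interaction in edgeR, with the mouse as a term. In fibroblast-like cells the effect was lower than in capillary cells for Gpihbp1 (difference of log2 fold changes −0.67 ± 0.18, edgeR adjusted p = 0.0478), Cd36 (−0.63 ± 0.16, 0.0439) and Rbp7 (−0.97 ± 0.22, 0.0276), beside 5.76% of all genes called. In muscle fiber cells it was lower for Gpihbp1, Cd36, Fabp4, Fabp5 and Rbp7, by differences of −2.45 (Rbp7) to −1.30 (Fabp5), beside 0.786% of genes. In tenocytes it was lower for Gpihbp1, Cd36 and Fabp4 (−1.62 to −1.35, beside 1.41%). For Lpl the effect was higher in mesothelial cells (2.07 ± 0.38, edgeR adjusted p = 0.0325, beside 1.07%) and lower in muscle stem cells or myoblasts (−1.06 ± 0.22, edgeR adjusted p = 0.0417, beside 1.32%). Venular Cd36 (−0.53 ± 0.14, edgeR adjusted p = 0.0458, beside 3.29%) and Fabp4 in non-myelinating glia (−0.97 ± 0.17, edgeR adjusted p = 0.0283, beside 0.221%) were also lower relative to capillary cells. In the glia the endothelial list was at a mean of 501 CPM in WT and 308 CPM in Aromhum mice (log2 change −0.70) and at 6.41% of its blood endothelial level, with Fabp4 at 4.50%. In T cells the Lpl effect was higher than in capillary cells (3.22 ± 0.64, edgeR adjusted p = 0.0165, beside 0.716%), although T cell Lpl, at 29.3, 9.52 and 101 CPM in WT and 410, 316 and 62.9 CPM in Aromhum mice, overlapped at Arom3 and rested on 395 UMIs in all. Apoe, a gene known to be abundant in macrophages and chosen here after its values were seen, was at 19.5, 14.3 and 28.8 CPM in WT and 280, 561 and 94.4 CPM in Aromhum T cells (4.02 ± 0.71, edgeR adjusted p = 0.0417), and the part of RNA of other cells in the Lpl difference was not tested. Within the limits on cells, 0 of 6 were called for fibroblast-like cells, with 2 at an unadjusted p under 0.05, and the differences were −0.85 for Gpihbp1, −0.29 for Cd36 and −0.35 for Rbp7.

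The other genes of lipid handling, a list of 69 of which 60 were in the table, had few calls in capillary cells. Of 48 tested, 2 were higher and 0 lower, with a median log2 fold change of −0.02, beside 2.29% called and a median of −0.01 over all genes. Capillary Scarb1, the HDL receptor gene, was at 194, 197 and 176 CPM in WT and 325, 326 and 240 CPM in Aromhum mice, without overlap (0.62 ± 0.14, edgeR adjusted p = 0.0331). The Scarb1 call was lost without any one of the mice but Arom3 (adjusted p up to 0.174).

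By role, the 13 partners and regulators of lipoprotein lipase had 8 members tested in capillary cells, with Scarb1 the 1 called. None of 5 transcription factors, 10 genes of lipid droplets and lipolysis and 11 of mitochondrial entry and oxidation passed.

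In fibroblast-like cells 57 of the list were tested, with 1 higher and 8 lower (15.8%), near the 13.6% of all genes called. The lower genes were Pdk4 (−1.61 ± 0.28), a kinase that holds back glucose oxidation, Acadm (−0.64 ± 0.14), an enzyme of fatty acid oxidation, Ppargc1a (−1.75 ± 0.39), a coactivator of mitochondrial genes, Pnpla2 (−0.45 ± 0.11), the lipase ATGL, G0s2 (−1.47 ± 0.32), its inhibitor, the caveolin gene Cav2 (−1.57 ± 0.34), and the endothelial transcription factor genes Tcf15 (−0.95 ± 0.18) and Meox2 (−1.74 ± 0.45). Tcf15 and Meox2 are also among the capillary markers. Pdk4 and Ppargc1a were low, with WT means of 3.05 and 1.93 CPM. Angptl8 was the higher one, at 0.685, 0 and 0 CPM against 4.85, 3.26 and 2.36 CPM (edgeR adjusted p = 0.0427). All 9 calls were lost without WT2, WT3, Arom1 or Arom2. That of Angptl8 was also lost by DESeq2 (adjusted p = 0.154) and with low genes kept, and those of Pnpla2 and Meox2 with low genes kept. The limits on cells ended the calls of Angptl8 (2.05), Tcf15 (−0.80), Cav2 (−0.91), G0s2 (−1.21), Acadm (−0.38), Pnpla2 (−0.28) and Meox2 (−0.90), and removal of marked doublets those of Ppargc1a (−1.63) and Pnpla2 (−0.44). In muscle fiber cells 46 were tested and 2 were lower, Tcf15 (−2.52 ± 0.36) and the caveolin gene Cav1 (−1.47 ± 0.25, edgeR adjusted p = 0.0495), beside 0.412% of all genes called. Both were lost without WT2, WT3 or Arom1, within the limits on cells (Tcf15 −1.71 and Cav1 −0.85) and without marked doublets (−2.75 and −1.94). Tcf15 was also lost without WT1, and Cav1 without Arom2 and at resolutions 0.4 and 1.2.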

How the data were processed

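Single cells of LAM from 3 WT and 3 Aromhum mice were sequenced as 10x Genomics 3′ libraries, 1 per mouse. Per the submitters' processing notes and the study's methods, the authors made the deposited values, UMI counts per gene and barcode, with Cell Ranger 3.0.2 on the mm10 mouse reference with CYP19A1 added. The step that left 16494 genes in the table is not given in the sources used here. Depth was 64958237 to 111826460 UMIs per library, and every column belonged to a sample.

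All 63647 deposited barcodes were used, of which 472 sequences occurred in more than 1 library. Counts were scaled to 10000 per cell, and cells were clustered without the 6 genes on 2000 variable genes, 30 principal components and 20 neighbors by the Leiden method at resolution 0.8 (seed 1). Clusters were named from marker lists. Tools were Python 3.11.15, scanpy 1.11.5, leidenalg 0.10.2, scipy 1.17.1 and R 4.3.3. Raw counts were summed per mouse and type and tested with edgeR 4.0.16 (quasi-likelihood, TMM, filterByExpr, Benjamini-Hochberg adjustment over all genes of a type, threshold 0.05) in types with at least 20 cells in every mouse. Levels are CPM over mice with at least 10 cells. The interaction with capillary cells had the mouse as a term. The SE given with an edgeR log2 fold change is its absolute value divided by the square root of the quasi-likelihood F statistic. The fits were checked on simulated data with 200 changed genes.

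The alternatives were DESeq2 1.42.0, limma 3.58.1 (voom, for the interaction), a fit that kept low genes, a fit blocked on replicate number, the study's fixed limits on cells (200 to 2500 genes, no fewer than 1000 UMIs and a mitochondrial share up to 5%, which left 18852 cells; its further removal of outliers by median absolute deviation was not applied), removal of doublets marked by Scrublet at an expected 0.8% per 1000 cells, resolutions 0.4 and 1.2, leaving out each mouse, single clusters, and the fibroblast-like class without cluster 20. Doublets stayed in the cells used for the reported values.

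The study processed 1 mouse of each genotype per date, but the labels do not tie replicate numbers to dates. Whether same-numbered mice are pairs is therefore not known. It would be the same in every type, since the same mice supply all of them. Blocked results stand beside the unblocked ones where all 3 correlations of same-numbered mice, in deviations from the group means, were over 0.1. This held in muscle fiber cells (0.103, 0.185 and 0.225) and in macrophages (0.338, 0.167 and 0.157). The cut of 0.1 was not part of the planned design. Venular cells, tenocytes, muscle stem cells or myoblasts (0.191, 0.0984 and 0.126) and both glial types fell short of it. In each of these types, 6 of 6 samples still correlated best with their own number.

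The genes named are the 6 members in every type, up to 10 called genes of the lipid list in capillary, fibroblast-like and muscle fiber cells, and the 5 genes most correlated with each member among those at 20 CPM or more in at least 1 type. Members, marker lists and gene lists were chosen with earlier results of these data known. Adipoq, Plin1, Cidec, Lep, Cfd and Cpt1b were not analysed here. A called gene of the lipid list in capillary cells is not reported here.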

Additional observations from a re-analysis of the deposited data

Results flagged for a closer look

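The genotype effect on a gene in a cell type differed from that in capillary cells, by edgeR's test of the interaction, in 16 pairs of a gene and a type. The values are the log2 fold change of Aromhum over WT mice in the type minus that in capillary cells. In muscle fiber cells they were −2.45 for Rbp7 (SE 0.28, edgeR adjusted p = 0.00251), −2.21 for Gpihbp1, −1.74 for Cd36, −1.43 for Fabp4 and −1.30 for Fabp5, the last with an edgeR adjusted p of 0.0340. In tenocytes they were −1.62 for Gpihbp1, −1.42 for Cd36 and −1.35 for Fabp4 (edgeR adjusted p = 0.00726). In fibroblast-like cells they were −0.97 for Rbp7, −0.67 for Gpihbp1 and −0.63 for Cd36. The summed level of the 8 endothelial genes moved with these, with a log2 change of −1.52 in muscle fiber cells, −1.71 in tenocytes and −0.71 in fibroblast-like cells. In muscle fiber cells the 8 ran from −2.42 (Cdh5) to −0.33 (Tek), with 2 called lower. The part of the endothelial RNA in these differences was not tested. Fibroblast-like cells here include cluster 20, without which their own calls were lost. Single values were −0.53 for Cd36 in venular cells and −0.97 for Fabp4 in non-myelinating glia, where the endothelial list was at −0.70.

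For Lpl the values were 2.07 in mesothelial cells, −1.06 in muscle stem cells or myoblasts and 3.22 in T cells (SE 0.64, edgeR adjusted p = 0.0165). The T cell class had 53, 54 and 20 cells in WT and 83, 181 and 31 cells in Aromhum mice, and within T cells alone the Lpl difference missed the threshold (edgeR adjusted p = 0.124). Apoe was called higher in the same cells (4.02).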

How the results depend on the processing

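Of 695 values computed under the alternatives, 439 kept their direction and side of the threshold or moved little, 188 lost the call, 4 gained it, 47 moved further and 17 changed sign. The cause was not tested for any of them. The 13 calls among the 6 genes became 34 with no filter on low counts, 26 by DESeq2, 1 within the limits on cells and 7 without marked doublets, and leaving out a mouse gave 1 to 26. The share of all pairs of a gene and a type called under these alternatives, or with the replicate block below, is not given here. The counts of members therefore cannot be set against it. Over all genes, the 249 calls in capillary cells became 112 within the limits and 59 to 408 without 1 mouse. The 1896 in fibroblast-like cells became 2880 by DESeq2, 1 within the limits and 3 to 3953 without 1 mouse. The 3612 over all cells became 5527 by DESeq2, 0 by edgeR within the limits (1861 at an unadjusted p under 0.05) and 0 to 4877 without 1 mouse, with 0 by edgeR without Arom1 and without Arom2 (4521 and 4672 at an unadjusted p under 0.05). The 13 calls of the lipid list in capillary, fibroblast-like and muscle fiber cells became 23 by DESeq2, 1 within the limits and 0 to 28 without 1 mouse. The 3 interaction calls of fibroblast-like cells became 4 by limma voom and 0 by edgeR within the limits (2 at an unadjusted p under 0.05). The difference in the share of the 6 genes' UMIs held by blood endothelial cells, −7.03 percentage points, was −8.14 within the limits and −10.6 to −3.23 without 1 mouse.

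These values changed sign. In capillary cells Gpihbp1 was at 0.01 and Fabp4 at 0.00 in cluster 4 alone, Lpl at 0.18 in cluster 4, Fabp5 at −0.01 with no filter and −0.05 in cluster 10, and Rbp7 at −0.05 in cluster 10. Without 1 mouse capillary Fabp5 ran from −0.12 to 0.10 and Rbp7 from −0.05 to 0.25. Lpl ran from −0.19 to 0.10 in fibroblast-like cells, −0.01 to 0.17 over all cells and −0.25 to 0.06 in muscle fiber cells. It was at 0.20 in cluster 0 and 0.97 in cluster 1 of the fibroblast-like class, −0.29 over all cells and 0.30 in muscle fiber cells within the limits. Single clusters, and the fibroblast-like class without cluster 20, which ended its 3 calls, were chosen after seeing the data.

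With the replicate block, the 13 calls among the 6 genes became 30, and the calls over all genes became 463 in capillary cells, 1527 in fibroblast-like cells and 3999 over all cells. Among the calls that the block added, not all of which are named here, were Cd36, Rbp7, Gpihbp1 and Lpl in arterial cells (edgeR adjusted p = 0.00353, 0.0134, 0.0149 and 0.0162), Rbp7 in fibroblast-like cells (0.0253) and Fabp5 over all cells (0.0478). The block ended Pnpla2 (0.0501) and Meox2 (0.0536) in fibroblast-like cells. Same-numbered mice correlated at 0.234, 0.0471 and 0.151 in capillary cells and 0.21, −0.126 and 0.158 in fibroblast-like cells. In arterial cells they correlated at 0.0591, 0.0907 and 0.353, and over all cells at 0.246, −0.0236 and 0.3. In these, 5, 2, 4 and 4 of 6 samples correlated best with their own number. Blocked values are therefore given here and not beside the results. Whether the numbers mark pairs of mice is not known. Changes of 2-fold were found in 37.1% of simulated muscle fiber genes and 31.6% of simulated interactions at this depth and with 3 mice a group.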
